A study of Mus musculus with 11 samples.

Results

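The USP family of deubiquitinases was examined in the livers of nude mice given A2M or PBS, to ask whether Usp2 differed between the treatments alone or together with its relatives. Members were taken by name, as every gene whose symbol is Usp followed by a number and at most 1 letter, leaving out Usp18, which removes the ubiquitin-like modifier ISG15. This gave 49 genes of the 24063 in the count table. Of these, 41 had enough reads to enter the test, and 8 did not.

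Liver samples, 5 from PBS and 6 from A2M mice, were sequenced as bulk RNA. All mice were of the strain labelled Cd1 nu/nu, that is, athymic and without mature T cells, and by the methods of the study they were males that bore subcutaneous human tumours. A2M stands for the activated form of human A2M, a plasma protease inhibitor, given by repeated intraperitoneal injection, and the PBS mice are the controls. The labels state neither the tumour line of the mice that gave these livers, nor their age at sampling, nor a time of day, nor a batch, so time and treatment cannot be told apart where these went together. Sample numbers in the labels were serial except for A2M replicate 6, whose number lies outside the run of the others. The labels do not state that each sample came from a separate animal, and p-values measure the spread between these samples.

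The PBS libraries held 31513210 to 46381692 counted reads each, and the A2M libraries 23545121 to 37357134. The summed level of 6 hepatocyte markers was 64612 to 108376 RPM (counts scaled to the same total in every library) in PBS livers and 85277 to 102538 in A2M livers, and none of these markers was at 0. PBS replicate 2 stood apart: its 3 adrenal markers summed to 423.7 RPM and its 3 fat markers to 303.7 RPM, against at most 1.68 and 5.43 in any other liver, most of which had some of these markers at 0. Markers of Kupffer cells, the macrophages of the liver, summed to 51.8 to 137.6 RPM in PBS livers and to 64.6 to 290.6 RPM in A2M livers, with the highest sum in A2M replicate 1. All 6 of them had positive fold changes and none passed the test. Markers of cholangiocytes, the cells of the bile ducts, summed to 257.3 RPM in PBS replicate 1, to 25.3 to 78.9 RPM in the other PBS livers and to 29.6 to 47.0 RPM in A2M livers. Of these 5 markers Spp1 and Sox9 had log2 fold changes of -1.56 and -0.95, with adjusted p values of 0.133 and 0.0896 by edgeR, and none passed. The part of these other cells in the results below was not tested beyond leaving out single livers. In bulk tissue, fewer cells of a type and less RNA per cell cannot be told apart.

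USPs are cysteine proteases that cut ubiquitin from proteins and so oppose the ubiquitin ligases that mark proteins for the proteasome or for signalling. They share a catalytic fold, while regions outside it direct each enzyme to its own substrates and to places such as chromatin, the endosome, the mitochondrion or the proteasome. Usp2 is known in mouse liver as a gene whose mRNA follows the circadian clock and the feeding state. Its known substrates include the clock proteins PER1, CRY1 and BMAL1, and the growth regulators cyclin D1 and MDM2. Usp21, its closest relative by catalytic domain, acts on ubiquitinated histone H2A among other targets.

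Usp2 lies on chromosome 9 at 44067021 to 44095627 of the mouse build GRCm38, on the forward strand, and Usp21 on chromosome 1 at 171281949 to 171287961. The promoters of this pair are printed because Usp2 differed between the groups while its nearest relative did not follow it. Each window reaches from 250 bases before to 50 bases after the start of the RefSeq gene and is written 5′ to 3′ on the strand of the gene. The window of Usp2 is chr9:44084670-44084969 on the forward strand and belongs to a start inside the gene, since its transcripts have several starts. That of Usp21 is chr1:171287912-171288211 on the reverse strand. Capitals mark the letters TGACGT, the core of a cAMP response element (CRE), read on either strand.
Usp2: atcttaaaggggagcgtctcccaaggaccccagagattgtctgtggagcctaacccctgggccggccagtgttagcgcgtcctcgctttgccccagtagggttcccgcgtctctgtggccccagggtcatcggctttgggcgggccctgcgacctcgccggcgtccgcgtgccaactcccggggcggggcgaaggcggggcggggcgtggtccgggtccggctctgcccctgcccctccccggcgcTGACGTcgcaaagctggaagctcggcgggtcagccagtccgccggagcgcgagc
Usp21: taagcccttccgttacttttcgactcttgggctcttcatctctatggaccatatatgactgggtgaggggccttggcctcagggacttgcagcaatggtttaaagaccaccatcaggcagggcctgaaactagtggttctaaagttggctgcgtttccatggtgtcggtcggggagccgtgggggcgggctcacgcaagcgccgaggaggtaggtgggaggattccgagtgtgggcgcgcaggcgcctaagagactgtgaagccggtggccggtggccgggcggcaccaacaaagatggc

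RefSeq windows were at hand for 32 of the 41 tested members and for 32851 starts in all, and 5 motifs were looked for on both strands, none of which contains another. The CRE core TGACGT stood in 6 member windows (Usp2, Usp8, Usp11, Usp36, Usp38 and Usp54), or 18.8%, against 7.51% of all windows. The E-box CACGTG, the letters bound by the clock activators CLOCK and BMAL1, stood in 4 (Usp4, Usp16, Usp31 and Usp32), or 12.5%, against 7.15%. The letters AGGTCA, bound by ROR and REV-ERB receptors, stood in 2 (Usp10 and Usp20), or 6.25%, against 16.3%. The D-box TTATGNAA, bound by DBP, stood in 0 member windows against 3.38% of all windows. The GC box GGGCGG was common to 24 member windows, or 75.0%, against 35.7%, and both printed windows hold it. The windows of all genes, tested or not, were not matched to those of the members for level or base content. A match is a string of letters and was not tested as a binding site, and the upstream starts of Usp2 were not searched.

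Usp2 was the member with the largest difference between the groups. Its level, in RPKM (RPM divided by the exon length in kilobases), was 0.296, 1.804, 0.420, 1.40 and 1.66 in PBS replicates 1 to 5. In A2M replicates 1 to 6 it was 8.36, 8.20, 9.99, 13.4, 10.8 and 2.67. Every A2M liver was above every PBS liver, and the gap was narrow only for A2M replicate 6. The means were 1.11 ± 0.707 RPKM (SD, n = 5) and 8.90 ± 3.59 RPKM (SD, n = 6). The fitted log2 fold change of A2M over PBS was 3.01 (SE 0.493, 95% interval 1.94 to 4.07), or 8.03-fold.

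Whether this difference passed depended on the test. By the quasi-likelihood test of edgeR the adjusted p of Usp2 was 0.0134, just above the threshold of 0.01. Its unadjusted p by this test was 3.74e-05 and ranked 35 among all genes tested. The study applied its threshold of 0.01 to edgeR and DESeq together, not to this test. By its own rule the paper reports Usp2 as the liver gene raised most by fold change. The mean RPKM values that it gives for Usp2 differ from those above. By DESeq2 the adjusted p was 4.51e-06 and by the exact test of edgeR 1.38e-06, both under the threshold. Leaving out A2M replicate 6 brought the quasi-likelihood adjusted p to 0.00450 with a log2 fold change of 3.19, and leaving out any other single liver left it between 0.0204 and 0.0353. Without PBS replicate 2, the liver with adrenal and fat RNA, the log2 fold change was 3.19 and the adjusted p 0.0282. Without A2M replicate 1, the liver with the highest Kupffer cell markers, they were 3.02 and 0.0204. Without PBS replicate 1, the liver with the highest cholangiocyte markers, they were 2.76 and 0.0233.

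**Figure D1:**
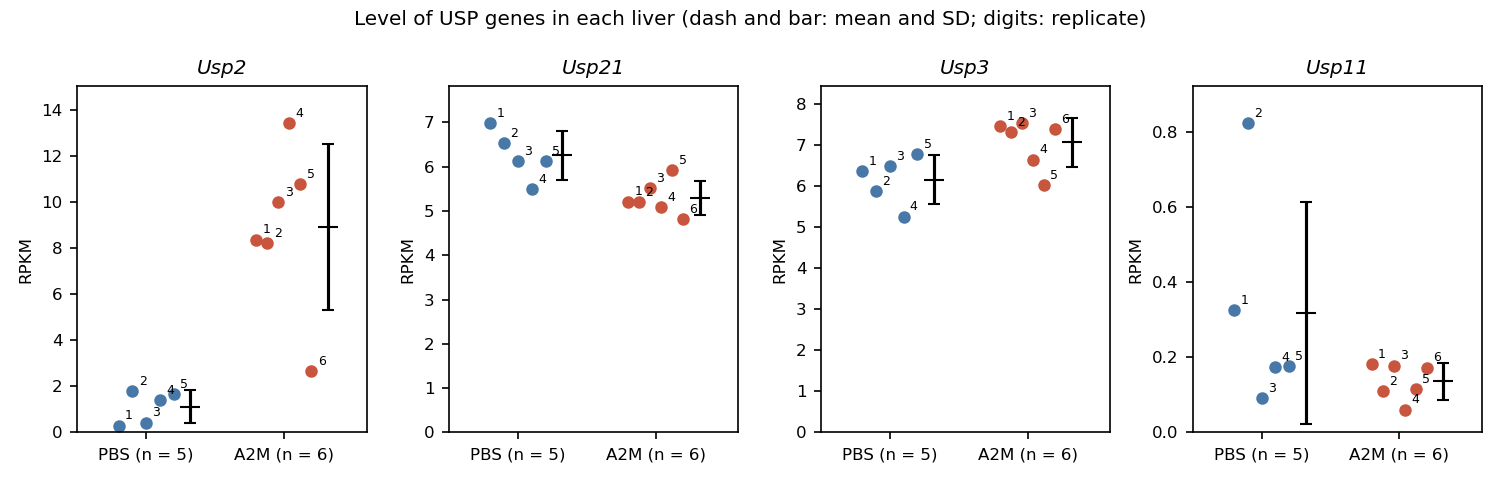
RPKM (vertical axis, linear, from 0) of Usp2, Usp21, Usp3 and Usp11 in each liver, with 1 point per liver and the mean ± SD of the 5 PBS and 6 A2M livers. The A2M points of Usp2 (2.67 to 13.4) all lie above its PBS points (0.296 to 1.804), while the points of the other genes overlap between the groups.

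At the threshold of an adjusted p under 0.01, 0 of the 41 members passed the quasi-likelihood test of edgeR, where 0.215% of all 12581 genes did, 0.0795% with higher and 0.135% with lower values in A2M. DESeq2 called 1 member, Usp2, where it called 2.27% of all genes. The rule nearest to that of the study, the exact test of edgeR and DESeq2 both under the threshold, also called Usp2 alone, where 1.47% of all genes passed. At an adjusted p under 0.05 by the quasi-likelihood test the count was again 1, Usp2, against 1.22% of all genes. Usp2 was also the only member of the 41 whose 2 groups did not overlap in TMM-scaled CPM, where 2.59% of all genes did not overlap and 1.01% did so with A2M higher. The study had reported Usp2 as the liver gene raised most, and the family was chosen with this known. A count that includes Usp2 is therefore no comparison with these shares. Without Usp2, 0 of the 40 other tested members were called by DESeq2, by both tests together or at an adjusted p under 0.05. Likewise 0 of these 40 had groups that did not overlap. Shares of this size over 40 genes come to about 1 gene or fewer, so these counts are near the background.

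Of the 40 other tested members, none had a fold change near that of Usp2. Their log2 fold changes ran from -1.15 (Usp11) to 0.45 (Usp31) with a median of 0.03, beside -0.01 over all genes tested. In 33 of the 40 the 95% interval of the fold change lay wholly within 1.5-fold in either direction, against 57.4% of all genes tested. In 37 of the 40 it lay within 2-fold, against 81.4% of all genes tested. These shares were not matched for level, and 33 of the 40 had a mean of at least 1 RPKM. Intervals of the 40 reached up to at most 0.90, for Usp31, under the lower end of the interval of Usp2, 1.94. On the other side, the interval of Usp11 reached down to -2.18, a range that includes both small and large decreases. The 3 members whose interval went past 2-fold, Usp11, Usp27x and Usp35, were all low genes, with means of at most 0.318 RPKM in either group.

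The signs of the family were mixed. Of the 41 fold changes 25 were positive and 16 negative, so 39.0% were negative against 51.1% of all genes. Scaled by library totals alone, 20 of the 41 were negative, 48.8% against 54.6%, and the median of the members moved from 0.05 to 0.02. At an unadjusted p under 0.05, a threshold that 14.7% of all genes met, there were 5 members: Usp2, Usp3 and Usp31 with higher values in A2M, where 6.38% of all genes met it in this direction, and Usp11 and Usp21 with lower, where 8.32% did. The count of 5 fell to 2 without PBS replicate 2 and to 3 without PBS replicate 1, A2M replicate 2 or A2M replicate 3. The share over all genes was not counted in those fits. The 4 besides Usp2 had adjusted p values of 0.235 to 0.334 by edgeR.

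**Figure D2:**
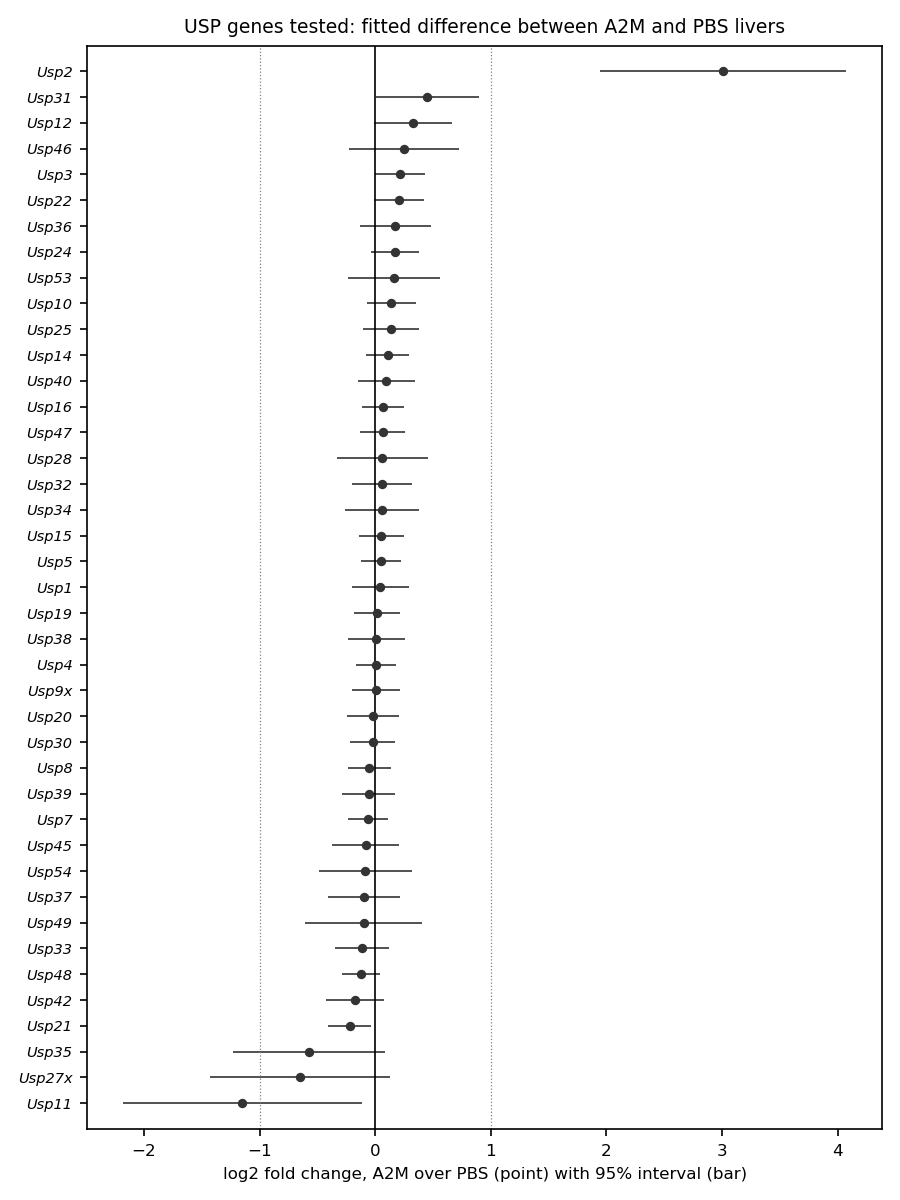
Log2 fold change of A2M over PBS (horizontal axis) with its 95% interval for the 41 tested members, in order of size, by edgeR. Usp2 stands at 3.01 and the other members between -1.15 and 0.45, and the dotted lines mark a 2-fold change.

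Usp21, the closest relative of Usp2, leaned the other way by a small amount. It read 6.98, 6.54, 6.13, 5.49 and 6.13 RPKM in PBS livers and 5.21, 5.20, 5.51, 5.09, 5.92 and 4.81 RPKM in A2M livers. The groups overlapped through A2M replicates 3 and 5, which were above PBS replicate 4. The means were 6.25 ± 0.555 RPKM (SD, n = 5) and 5.29 ± 0.381 RPKM (SD, n = 6). The log2 fold change was -0.22 (SE 0.0848, 95% interval -0.41 to -0.04) and did not pass, with an adjusted p of 0.235 by edgeR.

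The pair was compared within each liver, since a ratio of 2 genes in a library does not depend on the scaling between libraries. The ratio of Usp2 to Usp21 in RPKM was 0.0425, 0.276, 0.0685, 0.254 and 0.270 in PBS livers and 1.604, 1.58, 1.81, 2.64, 1.82 and 0.555 in A2M livers. Usp2 was thus below Usp21 in all 5 PBS livers and in A2M replicate 6, and above it in the other 5 A2M livers. On the log2(RPKM + 0.1) scale the mean was -2.65 ± 1.13 (SD, n = 5) in PBS and 0.60 ± 0.745 (SD, n = 6) in A2M, a difference of 3.25. The groups of Usp2 were known not to overlap and Usp21 varied little, so the ratio is given as a description, with no test. The ratio of Usp2 to each of the other tested members likewise had groups that did not overlap, for 40 of 40, as a description of the same Usp2 values.

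The place of Usp2 in the family differed between the groups. Ranked by RPKM among the 49 members, it was number 39, 31, 38, 29 and 30 in PBS replicates 1 to 5 and number 12, 13, 12, 5, 8 and 27 in A2M replicates 1 to 6. It held 0.112 to 0.651% of the summed RPKM of the family in PBS livers and 1.06 to 5.02% in A2M livers, with means of 0.444 ± 0.278% (SD, n = 5) and 3.34 ± 1.31% (SD, n = 6). The rest of the family kept close to its sum, with 252.3 ± 23.3 RPKM (SD, n = 5) in PBS and 256.3 ± 15.6 RPKM (SD, n = 6) in A2M without Usp2. The lowest of these sums was 214.1 in PBS replicate 4 and the highest 285.5 in A2M replicate 3.

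Usp2 also varied more between livers of the same group than nearly all its relatives. Its coefficient of variation was 63.5% in PBS and 40.4% in A2M, the second highest of the 41 in both groups, where the medians of the members were 13.3% and 11.5%. Usp11 was the most variable in PBS livers (92.6%) and Usp27x in A2M livers (42.5%), both at low levels.

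**Figure D3:**
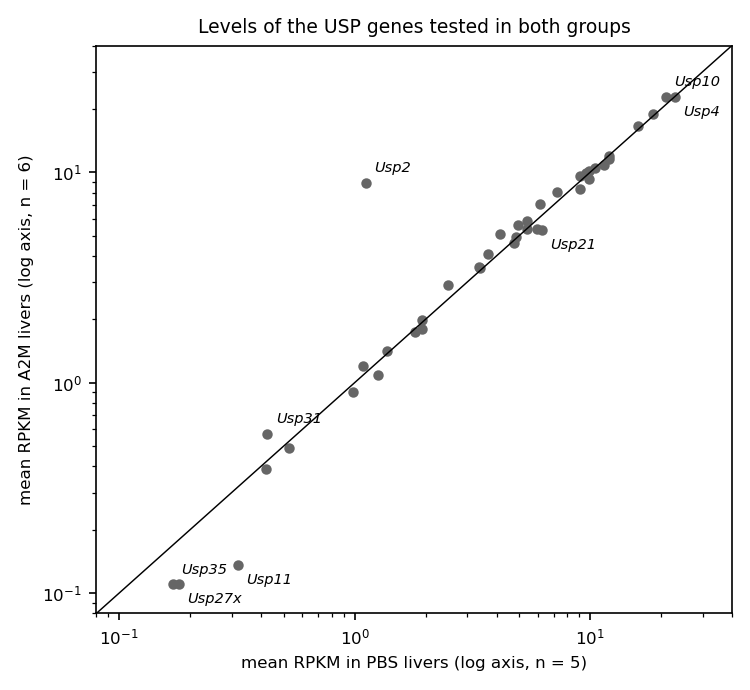
Mean RPKM of each tested member in the 5 PBS livers (horizontal, log axis) against the mean in the 6 A2M livers (vertical, log axis), with the line of equal values. Usp2 lies off the line, at 1.11 and 8.90, and the other members with means of at least 1 RPKM lie along it.

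The most abundant members were Usp4, Usp10, Usp5 and Usp47, and their levels in the 2 groups overlapped. Usp4, a deubiquitinase of spliceosome and signalling proteins, ran from 17.9 to 25.3 RPKM in PBS (median 24.3) and from 22.1 to 23.2 in A2M (median 22.7), with a log2 fold change of 0.01 (SE 0.0797). Usp10, which binds G3BP1 and acts on p53, ran from 18.4 to 22.8 RPKM in PBS (median 21.1) and from 19.0 to 26.5 in A2M (median 23.4), with 0.14 (SE 0.0990). Usp5, which disassembles free ubiquitin chains, ran from 14.7 to 19.98 RPKM in PBS (median 19.4) and from 18.4 to 19.9 in A2M (median 18.7), with 0.05 (SE 0.0799). The interval of each of these genes, and of Usp47, lay within 1.5-fold. Usp47, which acts on DNA polymerase beta, ran from 13.2 to 17.8 RPKM in PBS (median 16.3) and from 14.8 to 19.4 in A2M (median 16.6), with 0.06 (SE 0.0910). The lowest PBS value of all 4 was that of PBS replicate 4. Counting all members, 9 had a mean of at least 10 RPKM, 25 a mean of 1 to 10 RPKM, and 7 were tested at a mean under 1 RPKM.

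Of the members that act on histones, 6 of 8 were tested, with 3 positive and 3 negative fold changes and a median of -0.02. Usp3, an enzyme of ubiquitinated H2A and H2B, ran from 5.25 to 6.78 RPKM in PBS (median 6.35) and from 6.03 to 7.53 in A2M (median 7.35), with a log2 fold change of 0.22 (SE 0.0985, adjusted p = 0.334 by edgeR). Usp22, the deubiquitinase of the SAGA coactivator complex, ran from 3.78 to 5.73 RPKM in PBS (median 5.06) and from 4.91 to 6.25 in A2M (median 5.68), with 0.21 (SE 0.1001, adjusted p = 0.361 by edgeR). Both genes thus had higher means in A2M and overlapping groups. Usp16 and Usp49, other histone enzymes, stood at 0.07 (SE 0.0845) and -0.10 (SE 0.232), and Usp27x, which can replace Usp22 in its module, at -0.65 (SE 0.361) from 107 reads in all PBS and 64 in all A2M livers.

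Usp1, Usp12 and Usp46 are switched on by the cofactor WDR48. Usp12 read 4.63, 4.96, 4.12, 2.33 and 4.56 RPKM in PBS livers and 4.97, 4.32, 6.45, 4.88, 5.48 and 4.31 RPKM in A2M livers, so the groups overlapped, with PBS replicate 4 lowest. Its log2 fold change of 0.33 (SE 0.155) had an adjusted p of 0.358 by edgeR. Usp46 stood at 0.25 (SE 0.220) and Usp1, the enzyme of FANCD2 and PCNA, at 0.05 (SE 0.114). None of the group passed.

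Usp11 had the most negative fold change of the family, and its size depended much on a single liver. It read 0.325, 0.823, 0.0916, 0.174 and 0.176 RPKM in PBS livers and 0.181, 0.110, 0.178, 0.0608, 0.114 and 0.172 RPKM in A2M livers. The highest value is that of PBS replicate 2, the liver with adrenal and fat RNA. PBS replicate 1 was also above every A2M liver, and the other 3 PBS livers were within the A2M range. The log2 fold change was -1.15 (SE 0.477, adjusted p = 0.283 by edgeR) with all livers and -0.49 (adjusted p = 0.651) without PBS replicate 2, where it was still the most negative of the tested members. Its relatives with a DUSP domain, Usp4, Usp15, Usp20, Usp32, Usp33 and Usp48, stood between -0.12 and 0.06, and the median over the 7 was -0.02.

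Usp31 was, like Usp11, a low gene. It read 0.417, 0.484, 0.448, 0.256 and 0.525 RPKM in PBS livers and 0.690, 0.666, 0.751, 0.393, 0.462 and 0.471 RPKM in A2M livers. A2M replicates 1 to 3 were above all PBS livers, and A2M replicates 4 to 6 were within their range. The log2 fold change was 0.45 (SE 0.206, adjusted p = 0.334 by edgeR). Usp35, another low gene, read 0.232, 0.258, 0.112, 0.108 and 0.132 RPKM in PBS livers and 0.134, 0.139, 0.128, 0.0617, 0.0895 and 0.108 RPKM in A2M livers. PBS replicates 1 and 2 were above all other livers, and the remaining PBS livers were within the A2M range. The log2 fold change was -0.57 (SE 0.303, adjusted p = 0.421 by edgeR).

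Other well-studied members showed small differences that did not pass. Among the enzymes of p53 and its ligase MDM2, besides Usp2, Usp4 and Usp10, Usp7 stood at -0.06 (SE 0.0810) and Usp42 at -0.18 (SE 0.117). Usp7 and Usp9x, which like Usp2 act on clock proteins, were at 11.4 and 10.5 RPKM in PBS and 10.8 and 10.5 RPKM in A2M, and Usp9x had a log2 fold change of 0.00 (SE 0.0964). Usp14, the deubiquitinase of the proteasome, stood at 0.11 (SE 0.0857). Usp8, which sorts receptors at the endosome, stood at -0.05 (SE 0.0867) and Usp30, which opposes mitophagy at the mitochondrion, at -0.02 (SE 0.0901).

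**Figure D4:**
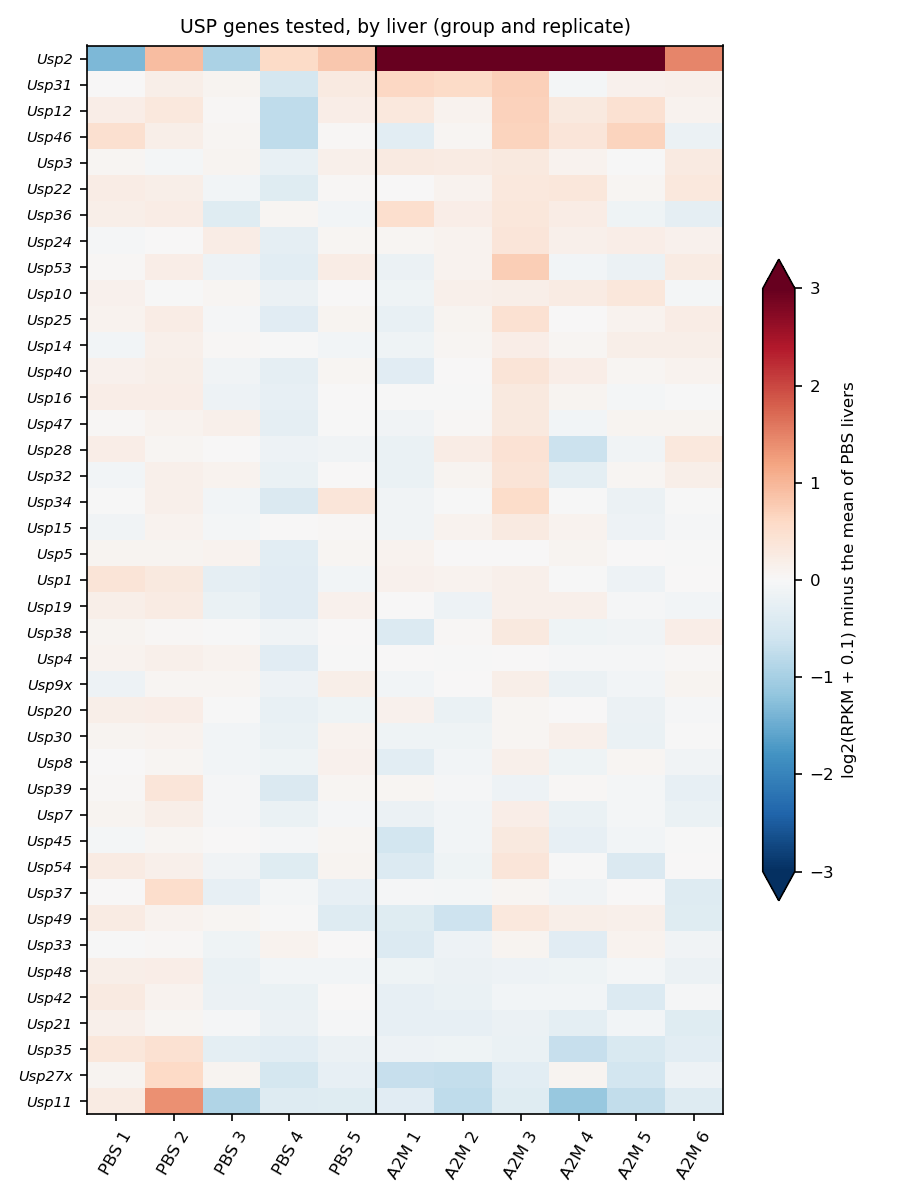
Log2(RPKM + 0.1) of each tested member in each of the 11 livers minus the mean of the PBS livers (colour, limited to -3 and 3). The row of Usp2 is coloured up in the A2M livers, least in A2M replicate 6, and no other row is coloured up as strongly there.

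The 8 members below the count filter held few or no reads. Usp43 had 16 reads in all PBS and 14 in all A2M livers, and Usp50 had 17 and 14. Usp13, the relative of Usp5, had 2 and 1, Usp51 had 2 and 1, and Usp29 had 1 and 0. Usp9y, Usp26 and Usp44 had 0 reads in all 11 livers, which allows up to 3 reads per library, or 0.0647 RPM in the deepest and 0.127 RPM in the shallowest library. No fold change is given for these 8.

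Deubiquitinases of the other families (UCH, OTU, Josephin, JAMM and MINDY) and related proteins were counted beside the USPs. The list also holds genes of the USP fold that the rule on symbols left out, such as Cyld, Uspl1 and Pan2. Of the 41 measured, 38 were tested, with 22 positive and 16 negative log2 fold changes, a median of 0.03 and a range from -0.51 to 0.58. By edgeR 0 of the 38 passed at an adjusted p under 0.01 and 0 under 0.05, and 4 had an unadjusted p under 0.05, where 14.7% of all genes did. DESeq2 called 1, Josd1, where it called 2.27% of all genes, so both counts were near or under the background. Josd1, a Josephin-domain deubiquitinase at the plasma membrane, read 9.36, 10.5, 9.79, 8.36 and 9.19 RPKM in PBS livers and 11.6, 11.0, 11.9, 11.2, 11.4 and 11.8 RPKM in A2M livers. Its groups did not overlap, as for 2.59% of all genes, and its log2 fold change was small at 0.30 (SE 0.0688), with an adjusted p of 0.0543 by edgeR and 0.000530 by DESeq2. Pan2, a deadenylase subunit with an inactive USP fold, stood at -0.51 (SE 0.149, adjusted p = 0.119 by edgeR), and the OTU enzyme Otud3 at 0.58 (SE 0.175, adjusted p = 0.128).

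The partners that activate or place USPs showed no called difference. All 8 listed (Wdr48, Wdr20, Atxn7l3, Eny2, Atxn7, Gmps, G3bp1 and Stam) were tested, with 4 positive and 4 negative log2 fold changes from -0.15 to 0.02. Each interval lay within 1.5-fold, where that of 57.4% of all genes did. None had an unadjusted p under 0.05 by edgeR, where 14.7% of all genes did. None passed DESeq2, where 2.27% of all genes did, so counts of 0 among 8 genes are near the background. The smallest p was that of Gmps, which binds Usp7, at -0.15 (SE 0.0794, adjusted p = 0.399), followed by Eny2 of the SAGA module at -0.10 (SE 0.105).

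Genes whose proteins Usp2 acts on, or which it is known to influence in liver, are reported as mRNA only, since protein was not measured here. Of 7 substrate genes 0 passed at an adjusted p under 0.01 by edgeR, 2 had an unadjusted p under 0.05, and DESeq2 called 1, Arntl, which encodes BMAL1. Over all genes tested these shares were 0.215%, 14.7% and 2.27%, and Arntl was listed with its difference known. Mdm2 stood at -0.21 (SE 0.0958, adjusted p = 0.331 by edgeR). Per1, Cry1, Ccnd1, Mdm4 and Fasn lay between -0.47 and 0.56 and did not pass. Hepatic Usp2 is known in mouse to raise glucose output through Hsd11b1, the enzyme that regenerates active glucocorticoid. Hsd11b1 stood at -0.08 (SE 0.129) and Pck1, a gluconeogenic enzyme, at -0.29 (SE 0.219). G6pc, the glucose-6-phosphatase, fell by 2.37 on the log2 scale (SE 0.333, adjusted p = 0.00632 by edgeR), from 209.2 ± 103.3 to 39.3 ± 16.0 RPKM (SD, n = 5 and 6). Cebpa, a hepatocyte transcription factor, stood at 0.55 (SE 0.142), with an adjusted p of 0.0836 by edgeR and 0.00749 by DESeq2. Of these 4 genes, also listed with earlier results known, 1 passed by edgeR, against 0.215% of all genes. DESeq2 called G6pc and Cebpa, against 2.27% of all genes. The part of Usp2 in the values of these genes was not tested.

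Clock transcripts are set beside Usp2 liver by liver, and were picked with their differences known. By edgeR the adjusted p values were 0.0108 for Arntl, 0.0503 for Dbp and 0.0229 for Per3. None passed at 0.01, where 0.215% of all genes did. DESeq2 called each of them, where it called 2.27% of all genes. The exact test of edgeR together with DESeq2 also called each, where 1.47% of all genes passed. Not all clock genes went with them: Per1 and Cry1 had log2 fold changes of 0.24 and -0.47, with adjusted p values of 0.808 and 0.553 by edgeR. Arntl read 10.3, 7.39, 8.72, 3.21 and 4.71 RPKM in PBS livers and 0.551, 0.599, 0.497, 0.302, 0.259 and 2.20 RPKM in A2M livers. Dbp, a clock output factor, read 0.155, 1.41, 0.321, 6.15 and 7.14 RPKM in PBS and 28.1, 28.6, 26.5, 40.5, 37.7 and 21.2 RPKM in A2M livers. Per3, of the negative limb of the clock, read 0.330, 0.786, 0.199, 1.23 and 0.913 RPKM in PBS and 2.22, 3.49, 3.47, 3.49, 4.36 and 2.11 RPKM in A2M livers. PBS replicates 1 and 3, the lowest in Usp2, were also the lowest in Dbp and Per3 and the highest in Arntl. A2M replicate 6, the lowest A2M liver in Usp2, was the lowest A2M liver in Dbp and Per3 and the highest in Arntl. The time of sampling is not in the labels, and its part in the values of Usp2 was not tested.

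**Figure D5:**
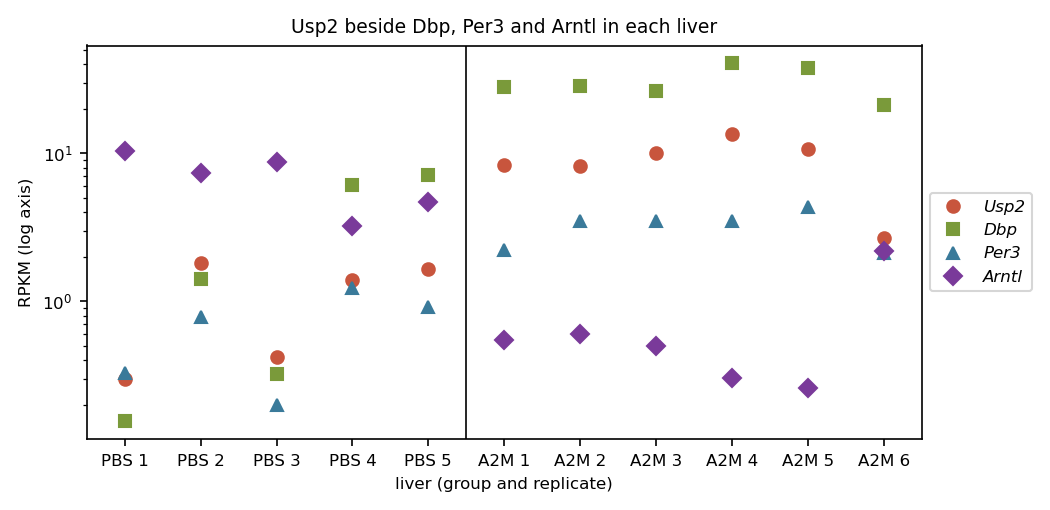
RPKM (vertical, log axis) of Usp2, Dbp, Per3 and Arntl in each of the 11 livers (horizontal). Usp2, Dbp and Per3 are higher and Arntl lower in the A2M livers, and A2M replicate 6 lies nearest to the PBS livers, with 2.67 RPKM of Usp2 and 2.20 RPKM of Arntl.

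The chromosomal neighbours of Usp2 were looked at as well, since the libraries did not keep the strand. Rnf26, which lies downstream, ran from 5.04 to 6.48 RPKM in PBS (median 5.96) and from 5.70 to 7.70 in A2M (median 6.26), with a log2 fold change of 0.17 (SE 0.101, adjusted p = 0.469 by edgeR). Thy1, upstream, ran from 0.435 to 1.08 RPKM in PBS and from 0.309 to 1.91 in A2M, with 0.23 (SE 0.415). The groups of both genes overlapped. Mcam, which lies further downstream, read 4.27 RPKM in PBS replicate 2 and 0.0988 to 0.611 RPKM in the other 10 livers, with -1.22 (SE 0.705, adjusted p = 0.463 by edgeR). Mfrp and C1qtnf5, also downstream and with the same span in the annotation, had 0 reads in all livers. Reads in a shared span cannot be given to either gene, so this count does not show that they are absent. In the GENCODE annotation 200 of the 4818 exon bases of Usp2, or 4.15%, are shared with 2 gene models on the opposite strand, Gm39325 and Gm49380, so reads there cannot be told apart, and neither model has a row in the count table. The counts are per gene and do not separate the isoforms of Usp2.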

How the data were processed

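Libraries were prepared by the authors from total RNA with a TruSeq kit that does not keep the strand. Per the submitters' processing notes and the methods, the tools were bcl2fastq 1.8.4 for base calls, TopHat2 for mapping to mm10 and featureCounts for counts per gene. The authors deposited whole-number read counts, not normalized. The deposited RPM values equal the counts scaled to the same total in every library within a tolerance of 1e-06, and for RPKM the authors further divided by exon length. The reads counted in genes came to 23545121 to 46381692 per library.

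Counts of all genes were tested in R 4.3.3 with edgeR 4.0.16 (TMM, filterByExpr, quasi-likelihood test, Benjamini-Hochberg adjustment over 12581 genes), without covariates, at an adjusted p under 0.01. Fold changes are A2M over PBS, and levels are deposited RPKM as mean ± SD. The Usp2 to Usp21 ratio was described on log2(RPKM + 0.1); its permutation p is at its floor because the Usp2 groups do not overlap, and is not given. The script was tested on simulated data. Alternatives were RLE factors, library totals, no filter, robust dispersion, DESeq2 1.42.0, the edgeR exact test with DESeq2, an adjusted p under 0.05, pseudocounts of 0.01 and 1, CPM in place of RPKM, and leaving out each liver. A fit without both PBS replicate 2 and A2M replicate 6 was chosen after seeing the data.

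The members and lists were chosen with earlier results of these data known. Values are given for Usp2, Usp21, the 6 other tested members with the smallest p, the 4 most abundant, and, in each other list, the 2 smallest p and any that passed. Gene positions are those of GRCm38, promoter windows those of RefSeq (GRCm38.p6) and exon overlaps those of GENCODE. All 49 members were matched to the annotation.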

Additional observations from a re-analysis of the deposited data

Results flagged for a closer look

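In 5 of the 82 groups looked at (41 members, each in PBS and in A2M), 1 liver lay far from the rest by Dixon's criterion at 95%, where chance gives about 1 in 20 groups, or 4.1. Usp5 was low in PBS replicate 4 at 14.7 RPKM, where the other PBS livers ran from 19.1 to 19.98. Usp37, a cell cycle deubiquitinase, was high in PBS replicate 2 at 1.43 RPKM against 0.802 to 0.976. A2M replicate 3 was the high liver for the other 3 genes. There Usp7 read 13.2 RPKM against 9.97 to 10.9 in the other A2M livers, Usp16 read 11.7 against 9.14 to 10.1, and Usp34 read 2.84 against 1.66 to 1.89. None of the 5 genes passed the test between the groups. Usp2 did not meet the criterion in either group.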

How the results depend on the processing

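The count of USP members called was 0 by the quasi-likelihood test at an adjusted p under 0.01 and 1, Usp2, under DESeq2, under the exact test with DESeq2, at an adjusted p under 0.05, and with PBS replicate 2 and A2M replicate 6 both left out. Leaving out single livers gave 0 to 1, the 1 being the fit without A2M replicate 6. Usp2 had a log2 fold change of 3.01, and it passed under DESeq2 (3.02), under the exact test with DESeq2 (3.01, the larger adjusted p being 4.51e-06) and with both livers left out (3.38, adjusted p 0.00692). Leaving out single livers gave 2.76 to 3.19. It remained above the threshold with RLE factors, library totals, no filter and robust dispersion, at adjusted p values up to 0.0267 by edgeR. Members at an unadjusted p under 0.05 numbered 5, against 7 by DESeq2 (with Usp12 and Usp22 added), 6 with RLE factors and 3 with library totals. They numbered 2 by the exact test with DESeq2, 2 with both livers left out, and 2 to 6 without single livers. In the main fit 14.7% of all genes met this threshold. That share was not counted under the alternatives, so these moves are not set against a background. Members whose groups did not overlap in TMM-scaled CPM numbered 1, and 1 to 2 without single livers, the added gene being Usp21 without A2M replicate 5. The ratio of Usp2 to Usp21 differed by 3.25, by 2.87 to 3.53 without single livers and by 2.39 with a pseudocount of 1. Other deubiquitinases called numbered 0, against 1 by DESeq2 (Josd1) and 0 without any single liver. The smallest adjusted p of any member but Usp2 in a fit without 1 liver was 0.160, for Usp11 without PBS replicate 3. None of these results changed direction, while the signs of some single members near 0 did, with 16 of 41 negative and 20 with library totals. No paired analysis was possible because the labels link no PBS liver with an A2M liver, and equal replicate numbers do not mark pairs. Low counts limit what can be said of the 8 untested members and of Usp11, Usp27x and Usp35.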
